A study of Mus musculus with 6 samples.

Results

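The Notch genes described here are 10 genes of the core pathway: the receptor genes Notch1, Notch2 and Notch3, the ligand genes Jag1, Jag2, Dll1 and Dll4, and the target genes Hes1, Hey1 and Hey2. They were named as a list, out of 21772 protein-coding genes of the mm10 RefSeq table, and every peak within 1 kb of either end of a gene, in its body, or between genes with that gene as the nearest within 100 kb was assigned to it. The peaks come from ChIP-seq for CHD7, a chromatin remodelling ATPase, for H3K27ac, a histone acetylation of active promoters and enhancers, and from input chromatin, with 2 libraries each. All 6 libraries came from mouse embryos at E10.5 in which Wnt1-Cre2, a Cre driver of the Wnt1 lineage that marks neural crest and its descendants, had switched the mTmG reporter to green fluorescence. The green cells of pharyngeal arches 3 to 6 were sorted and are labelled cardiac neural crest. No genotype, treatment or age differed between the groups, and all carried the driver and the reporter. Nothing in the labels ties the libraries to separate litters or sorts, so p-values measure only the spread between these libraries, which may be technical.

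Notch receptors are single-pass proteins that are cut after a ligand of the Jagged or Delta type on a neighbouring cell binds. The freed intracellular part enters the nucleus, joins the DNA-binding protein RBPJ and a Mastermind coactivator, and switches on genes such as those of the HES and HEY repressors. In the cardiac neural crest the pathway is known for its part in outflow tract and aortic arch artery development, and JAG1 and NOTCH2 are the genes of Alagille syndrome, which includes heart defects. CHD7 is the gene mutated in most cases of CHARGE syndrome, whose heart defects also involve the outflow tract.

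The peak lists hold 31873 and 26927 CHD7 peaks, 24283 and 22686 H3K27ac peaks, and 451 and 512 input peaks, and hold no read counts. Library depth is therefore unknown. Fold enrichment, quoted below as fold, is the height of a peak over the background of the authors' peak caller at its summit. A region is the merged extent of overlapping peaks, kept where both libraries of an antibody had a peak in it. Of 12 markers of neural crest and its arch derivatives, 3 had CHD7 (Sox9, Snai2 and Ets1) and 2 had H3K27ac (Sox9 and Twist1) at an end. The other 8 (Sox10, Tfap2a, Tfap2b, Foxd3, Pax3, Hand2, Prrx1 and Dlx5) had neither there. With bodies and nearby regions counted too, 8 of the 12 had CHD7 and 5 had H3K27ac. A peak does not measure expression. Of 9 markers of endothelium, where Notch1 and Dll4 are best known, 3 had CHD7 (Kdr, Cldn5 and Erg) and 0 had H3K27ac at an end. The other 6 (Pecam1, Cdh5, Tek, Tie1, Emcn and Sox17) had neither there. With bodies and nearby regions, 5 of the 9 had CHD7 and 4 had H3K27ac. At an end, 0 of 5 cardiomyocyte markers had either. Of 5 blood cell, 4 epithelial, 4 neuronal and 4 smooth muscle markers 1, 1, 1 and 0 had CHD7 at an end, and 1 of each had H3K27ac there. With bodies and nearby regions, 1 cardiomyocyte marker had CHD7 and 0 had H3K27ac. By that wider count 3, 1, 3 and 0 of the blood cell, epithelial, neuronal and smooth muscle markers had CHD7, and 3, 2, 2 and 2 had H3K27ac. The matching shares of all protein-coding genes were 44.2% for CHD7 and 47.6% for H3K27ac at an end, and 55.6% and 56.6% with bodies and nearby regions. These values stand beside the results below, and the part of other cells in them was not tested.

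Peaks were assigned to all 10 genes in at least 1 ChIP library and to 0 of them in the input libraries. The CHD7 libraries held 33 and 23 such peaks, 28.0 ± 7.07 (SD, n = 2), the H3K27ac libraries 21 and 20, 20.5 ± 0.71 (SD, n = 2), and both input libraries 0. The ChIP and input libraries did not overlap for either antibody. For each antibody the difference from input had an exact permutation p of 0.333, two-sided, which is the smallest that 2 against 2 libraries allow. Of all protein-coding genes, 1.22% had an input peak by the same rule. Their share with a peak of at least 1 ChIP library by this rule was not counted. Within 1 kb of an end, 55.1% had a CHD7 peak and 53.3% an H3K27ac peak of either library. With all genes of the RefSeq table, long non-coding RNA genes and pseudogenes included, competing to be the nearest gene, the means were 17.5 CHD7 and 12.5 H3K27ac peaks. Limited to a −log10 q of 10 or more they were 3 and 4.5.

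**Figure D1:**
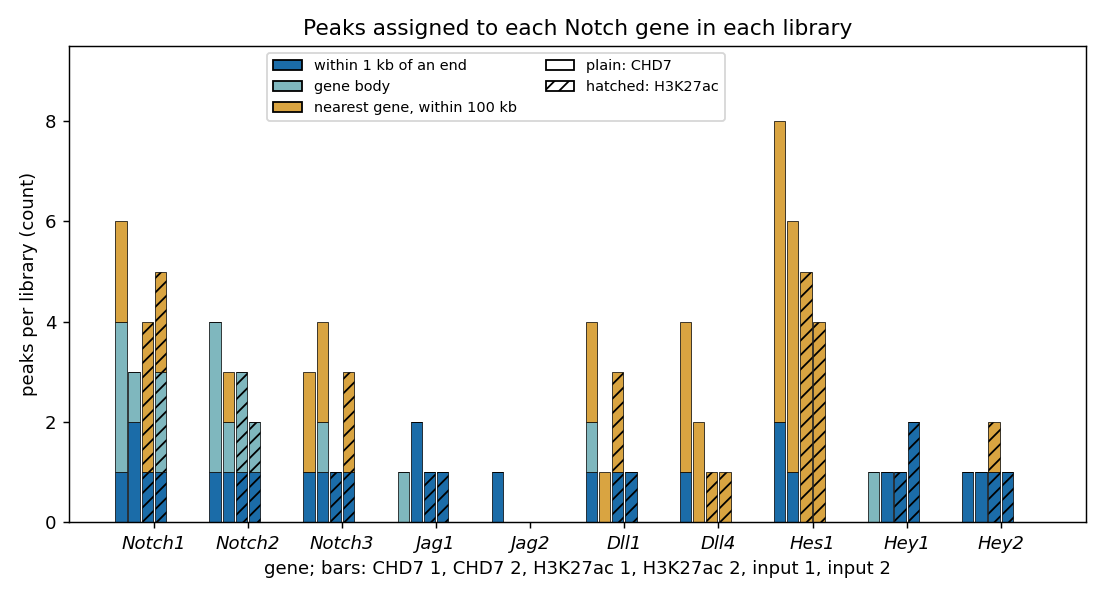
Number of peaks (y axis) assigned to each Notch gene (x axis) in each of the 6 libraries, drawn as bars in the order CHD7 1 and 2, H3K27ac 1 and 2, and input 1 and 2, coloured by position. Hes1 holds the highest bars, 8 and 6 CHD7 peaks, Jag2 holds 1 CHD7 peak in library 1, and the input bars are all at 0.

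Both libraries shared 13 CHD7 regions and 13 H3K27ac regions at these genes. CHD7 regions were found at 7 of the 10 genes, against 55.6% of all protein-coding genes, and H3K27ac regions at 9, against 56.6%. At the ends of genes, CHD7 lay at 5 of 10 (44.2% of all protein-coding genes) and H3K27ac at 7 of 10 (47.6%). The share with CHD7 is thus near that of all genes, and neither share was tested. In bodies away from the ends, CHD7 lay at 1 of 10, Notch1 (15.1% of all), and H3K27ac at 1 of 10, Notch2 (12.4%). Regions between genes had Dll1, Dll4 and Hes1 as the nearest gene for CHD7, 3 of 10 (11.4%), and Notch1, Dll4 and Hes1 for H3K27ac, 3 of 10 (8.06%). Notch1 was the only member with 3 or more H3K27ac regions (6.66% of all). With all RefSeq genes competing it kept 1, since both upstream regions lay closer to the lncRNA gene Gm35978, and limited to a −log10 q of 10 or more it had 0. With H3K27ac library 1 alone it had 4, and with library 2 alone, or with either library, it had 5. Notch1, Notch2, Notch3 and Hey2 had both marks at an end, Hes1 had CHD7 alone, Jag1, Dll1 and Hey1 had H3K27ac alone, and Jag2 and Dll4 had neither. Over all protein-coding genes, 39.3% had both, 4.83% CHD7 alone, 8.29% H3K27ac alone and 47.5% neither. CHD7 at ends depended on the library: library 1 had a peak at an end of 8 of the genes (51.1% of all) and library 2 at 7 (49.1%), and each of the 10 genes had an end peak in at least 1 of them (55.1%). For H3K27ac each library had an end peak at the same 7 genes (51.3% and 49.7% of all), as did the libraries combined (53.3%). Within 500 bp CHD7 lay at 4 members (41.0%) and H3K27ac at 5 (45.1%), and within 2.5 kb at 6 (48.5%) and 8 (51.2%). Limited to peaks of −log10 q of 10 or more, CHD7 lay at an end of 0 members (10.6%) and H3K27ac at 3, Notch2, Notch3 and Jag1 (28.3%).

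Most of these regions were weak for their lists. Of the 13 CHD7 regions, 10 had a mean fold below the median of all 19947 CHD7 regions, with a median of 2.83 against 3.46. Of the 13 H3K27ac regions, 10 likewise lay below the median of all 17756 H3K27ac regions, with a median of 3.43 against 4.06. The exceptions for CHD7 were at Notch2, beyond the end of Dll4 and far from Hes1, and those for H3K27ac at Notch2, at Jag1 and beyond the end of Dll4. Across the 13 regions fold in library 1 and library 2 correlated with a Pearson r of 0.84 and a Spearman rho of 0.80 for CHD7, and of 0.98 and 0.93 for H3K27ac. These points are regions of the same libraries, and the correlation is a description.

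**Figure D2:**
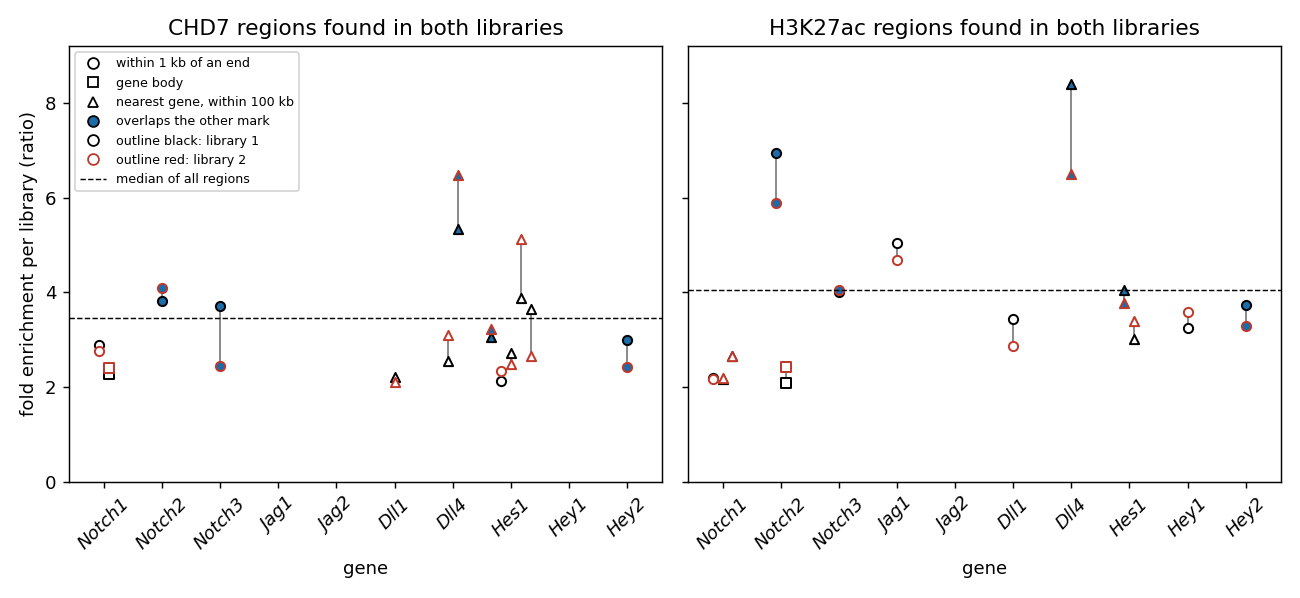
Fold enrichment (y axis) of each region found in both libraries of CHD7 (left) and H3K27ac (right), by gene (x axis), with library 1 outlined in black, library 2 in red, a line joining them, shapes for position (circles at ends, squares in bodies, triangles between genes) and fill where the region overlaps the other mark. The region beyond Dll4 is the highest in both panels, at 5.35 and 6.47 for CHD7 and 8.39 and 6.51 for H3K27ac, and most other points lie below the dashed median of all regions.

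The receptor genes had 4 CHD7 and 6 H3K27ac regions. Notch2, a receptor gene with roles in vascular smooth muscle, had the highest folds within 1 kb of an end for both antibodies. Its gene spans 136.8 kb of chromosome 3 (98013538 to 98150367), and the CHD7 region at its lower end (98013538 to 98014361) had folds of 3.82 and 4.10 in libraries 1 and 2. The H3K27ac region there (98013507 to 98014250) had folds of 6.95 and 5.89, a mean of 6.42 ± 0.75 (SD, n = 2), at percentile 92.2 of all H3K27ac regions. The summits of all 4 libraries lay between 205 and 265 bp past the start site. A weak H3K27ac region in the body (98062902 to 98063676) had folds of 2.08 and 2.42 and no CHD7 peak in either library. The other CHD7 peaks assigned to Notch2, 3 of library 1 and 2 of library 2, did not recur between the libraries.

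Notch3, the receptor gene best known from vascular smooth muscle (chromosome 17, 32120820 to 32166896), also had both marks near its start site. CHD7 (32165313 to 32166171) had folds of 3.72 and 2.45, and H3K27ac (32165455 to 32166830) had folds of 4.01 and 4.05. All 4 summits lay inside the gene, 372 to 1264 bp past the start site. About 20 kb beyond the far end, CHD7 library 1 (32099739 to 32100274, fold 3.75) and CHD7 library 2 (32100522 to 32100806, fold 2.64) had peaks 248 bp apart, and a peak of H3K27ac library 2 (32100077 to 32100377, fold 3.39) overlapped that of library 1. At 6559 and 7018 bp beyond that end, peaks of library 1 (fold 3.41) and library 2 (fold 3.87) likewise missed each other, by 86 bp. These neighbouring peaks count in no shared region.

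Notch1, the receptor gene that acts in endothelium and many progenitor cells (chromosome 2, 26457902 to 26503822), had both marks at ends, but not at the same end. CHD7 lay over the far end (26457469 to 26459417), with folds of 2.90 and 2.77 and summits 45524 and 45762 bp past the start site. The upper end of the lncRNA gene 0610009E02Rik also lies inside this CHD7 region. H3K27ac lay inside the gene near the start site (26502392 to 26503605), with folds of 2.19 and 2.18, at percentile 0.39 of all H3K27ac regions. Its summits were 1005 and 1259 bp past the start site. A CHD7 peak of library 2 alone overlapped this region (26502978 to 26503643, fold 2.19). Within the region it met a weaker H3K27ac peak of library 2 (26502897 to 26503605, fold 2.00) and not the H3K27ac peak of library 1. A weak CHD7 region of both libraries lay 2.21 kb inside that end (26501126 to 26501613, folds 2.27 and 2.41). Upstream, H3K27ac regions 3.63 kb (folds 2.18 and 2.19) and 21.6 kb (folds 2.66 and 2.65) from the gene had no CHD7 peak in either library.

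The start sites of Notch2 and Notch3 are the receptor start sites at which both marks lay together, so the 250 bases before each are shown. Sequences are from RefSeq (GRCm38.p6, the assembly of mm10), read 5′ to 3′ on the strand of the gene, at chr3:98013288-98013537 on the plus strand for Notch2 and chr17:32166891-32167140 on the minus strand for Notch3. Capitals mark matches on either strand to CACNAG, the N-box bound by HES proteins, and to CACGCG, a site of HES and HEY proteins. No match to one motif overlapped a match to the other.
Notch2: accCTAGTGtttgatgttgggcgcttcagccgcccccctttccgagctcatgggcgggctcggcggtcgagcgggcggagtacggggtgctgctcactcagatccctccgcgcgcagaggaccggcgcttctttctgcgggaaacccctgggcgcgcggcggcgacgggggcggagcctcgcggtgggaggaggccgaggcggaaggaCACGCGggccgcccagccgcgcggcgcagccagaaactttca
Notch3: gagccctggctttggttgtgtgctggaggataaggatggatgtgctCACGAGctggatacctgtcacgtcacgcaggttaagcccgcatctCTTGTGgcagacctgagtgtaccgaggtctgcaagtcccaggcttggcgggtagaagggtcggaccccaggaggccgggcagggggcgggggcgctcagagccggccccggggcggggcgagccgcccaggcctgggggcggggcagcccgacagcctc
The G and C content of these windows was 72.0% and 68.8%, with 34 and 17 CpG, against medians of 52.4% and 6 CpG over all 32851 promoters of the table. The H3K27ac peaks covered 31 and 13 bases of the Notch2 window in libraries 1 and 2, and the CHD7 peaks lay past the start site. The windows of both genes were thus upstream of most of the signal.

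The ligand genes had 3 CHD7 and 3 H3K27ac regions. Jag1, the ligand gene of Alagille syndrome (chromosome 2, 137081451 to 137116520), had H3K27ac in both libraries just upstream of its start site (137116861 to 137117523). The folds were 5.04 and 4.68, a mean of 4.86 ± 0.26 (SD, n = 2), and the summits lay 698 and 743 bp before the start site. CHD7 differed between the libraries there. Library 2 had peaks over the start site (137116347 to 137116691, fold 2.73) and over the H3K27ac region (137116957 to 137117478, fold 3.92, −log10 q 14.5), and library 1 had neither. The single CHD7 peak of library 1 lay 1818 bp inside the gene (137114390 to 137114702, fold 3.01). Jag1 therefore counts as having H3K27ac without CHD7 at an end, and with library 2 alone it has both.

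The 250 bases before the Jag1 start site (chr2:137116521-137116770, minus strand, same source and marks) are shown because the CHD7 peak of library 2 covered 171 of them. Both capitalised matches are CACGCG, the first of them on the opposite strand.
Jag1: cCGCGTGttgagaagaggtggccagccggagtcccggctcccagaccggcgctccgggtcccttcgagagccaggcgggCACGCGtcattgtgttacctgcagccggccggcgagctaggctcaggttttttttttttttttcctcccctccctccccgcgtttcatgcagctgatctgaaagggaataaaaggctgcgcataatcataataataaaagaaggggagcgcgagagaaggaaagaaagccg
This window held 57.2% G and C and 20 CpG, and it lies between the start site and the H3K27ac region.

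Dll4, the Delta ligand best known from arterial endothelium, had the strongest region of all 10 genes for both antibodies. It lay not at the start site but 1.54 kb beyond the far end of the gene (chromosome 2, 119325784 to 119335666). The CHD7 region (119337207 to 119338317) had folds of 5.35 and 6.47, a mean of 5.91 ± 0.79 (SD, n = 2), at percentile 97.2 of all CHD7 regions. The H3K27ac region (119337364 to 119338472) had folds of 8.39 and 6.51, a mean of 7.45 ± 1.33 (SD, n = 2), at percentile 97.3. The CHD7 and H3K27ac regions overlapped, and the summits of the 4 libraries lay between 11987 and 12210 bp past the start site. The start site itself had a single CHD7 peak of library 1 (119325977 to 119326294, fold 2.47) and no H3K27ac peak. A second CHD7 region 3.12 kb upstream (119322120 to 119322666, folds 2.54 and 3.09) had no H3K27ac and overlapped the lncRNA genes Gm14207 and Gm52558. Within 2.5 kb in place of 1 kb, Dll4 counts as having both marks at an end.

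Dll1, a Delta ligand of the presomitic mesoderm and neural progenitors (chromosome 17, 15367354 to 15376932), had H3K27ac just inside its upper start site (15376357 to 15376871, folds 3.44 and 2.87). CHD7 library 1 had a peak there (15376520 to 15376918, fold 2.27) and library 2 did not. The CHD7 region of both libraries lay 3.96 kb upstream (15380890 to 15381343, folds 2.21 and 2.11), at percentile 0.68 of all CHD7 regions, and an H3K27ac peak of library 1 alone overlapped it (15380925 to 15381589, fold 2.87). Jag2, the second Jagged ligand gene (chromosome 12, 112907803 to 112929812), had a single peak in all 6 libraries. This was a CHD7 peak of library 1, 513 bp inside the upper end (112928956 to 112929299, fold 3.74). Its promoter window was the richest in G and C of the 8 genes with one in the table, at 87.2% with 54 CpG.

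The target genes had 6 CHD7 and 4 H3K27ac regions, and Hes1 held 5 of these CHD7 regions. Hes1, a repressor switched on by Notch and by itself switched off (chromosome 16, 30065357 to 30067796), is 2.44 kb long, the shortest of the 10 genes. Over all genes, 1.70% of protein-coding genes had 5 or more CHD7 regions by the same rule, and 0.340% were nearest to 4 or more between genes. The count of 5 rests on that rule: with all RefSeq genes competing for nearest, non-coding RNA genes and pseudogenes included, Hes1 kept 1 CHD7 region, and with a limit of 50 kb it kept 2. All 4 of its regions between genes lay closer to a non-coding gene or pseudogene than to Hes1. Limited to a −log10 q of 10 or more it had 1, with library 1 alone 8, with library 2 alone 6, and with either library 9. The CHD7 region at the gene lay 69 bp inside the lower end (30065426 to 30065831) and was weak, with folds of 2.14 and 2.34 at percentile 1.09. The other 4 lay between genes. The strongest was 61.4 kb above the upper end (30129226 to 30130342), with folds of 3.89 and 5.12, a mean of 4.50 ± 0.87 (SD, n = 2), at percentile 86.4. Those 35.1 kb (30102924 to 30103366, folds 2.73 and 2.49) and 77.4 kb (30145208 to 30145703, folds 3.65 and 2.66) above the gene were lower.

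Of the regions of both libraries around Hes1, CHD7 and H3K27ac overlapped at 1 place, 56.2 kb below the gene (30008391 to 30009136). CHD7 had folds of 3.05 and 3.22 there and H3K27ac (30008523 to 30009149) folds of 4.05 and 3.78. The lower end of the lncRNA gene 4632428C04Rik lies inside this region. The other 4 CHD7 regions of Hes1 had no H3K27ac peak in either library. The second H3K27ac region lay 2.86 kb above the gene (30070654 to 30071057, folds 3.01 and 3.40), 216 bp from the lncRNA gene Gm32998, and had no CHD7 peak. No H3K27ac peak of either library lay within 1 kb of an end of Hes1. Over the 6 counts of CHD7 and H3K27ac regions at ends, in the body and nearby, the genes most like Hes1 were Neurog1, Tmco5 and Epha2. Each of them was at a Euclidean distance of 1 region, as were 7 genes in all.

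**Figure D3:**
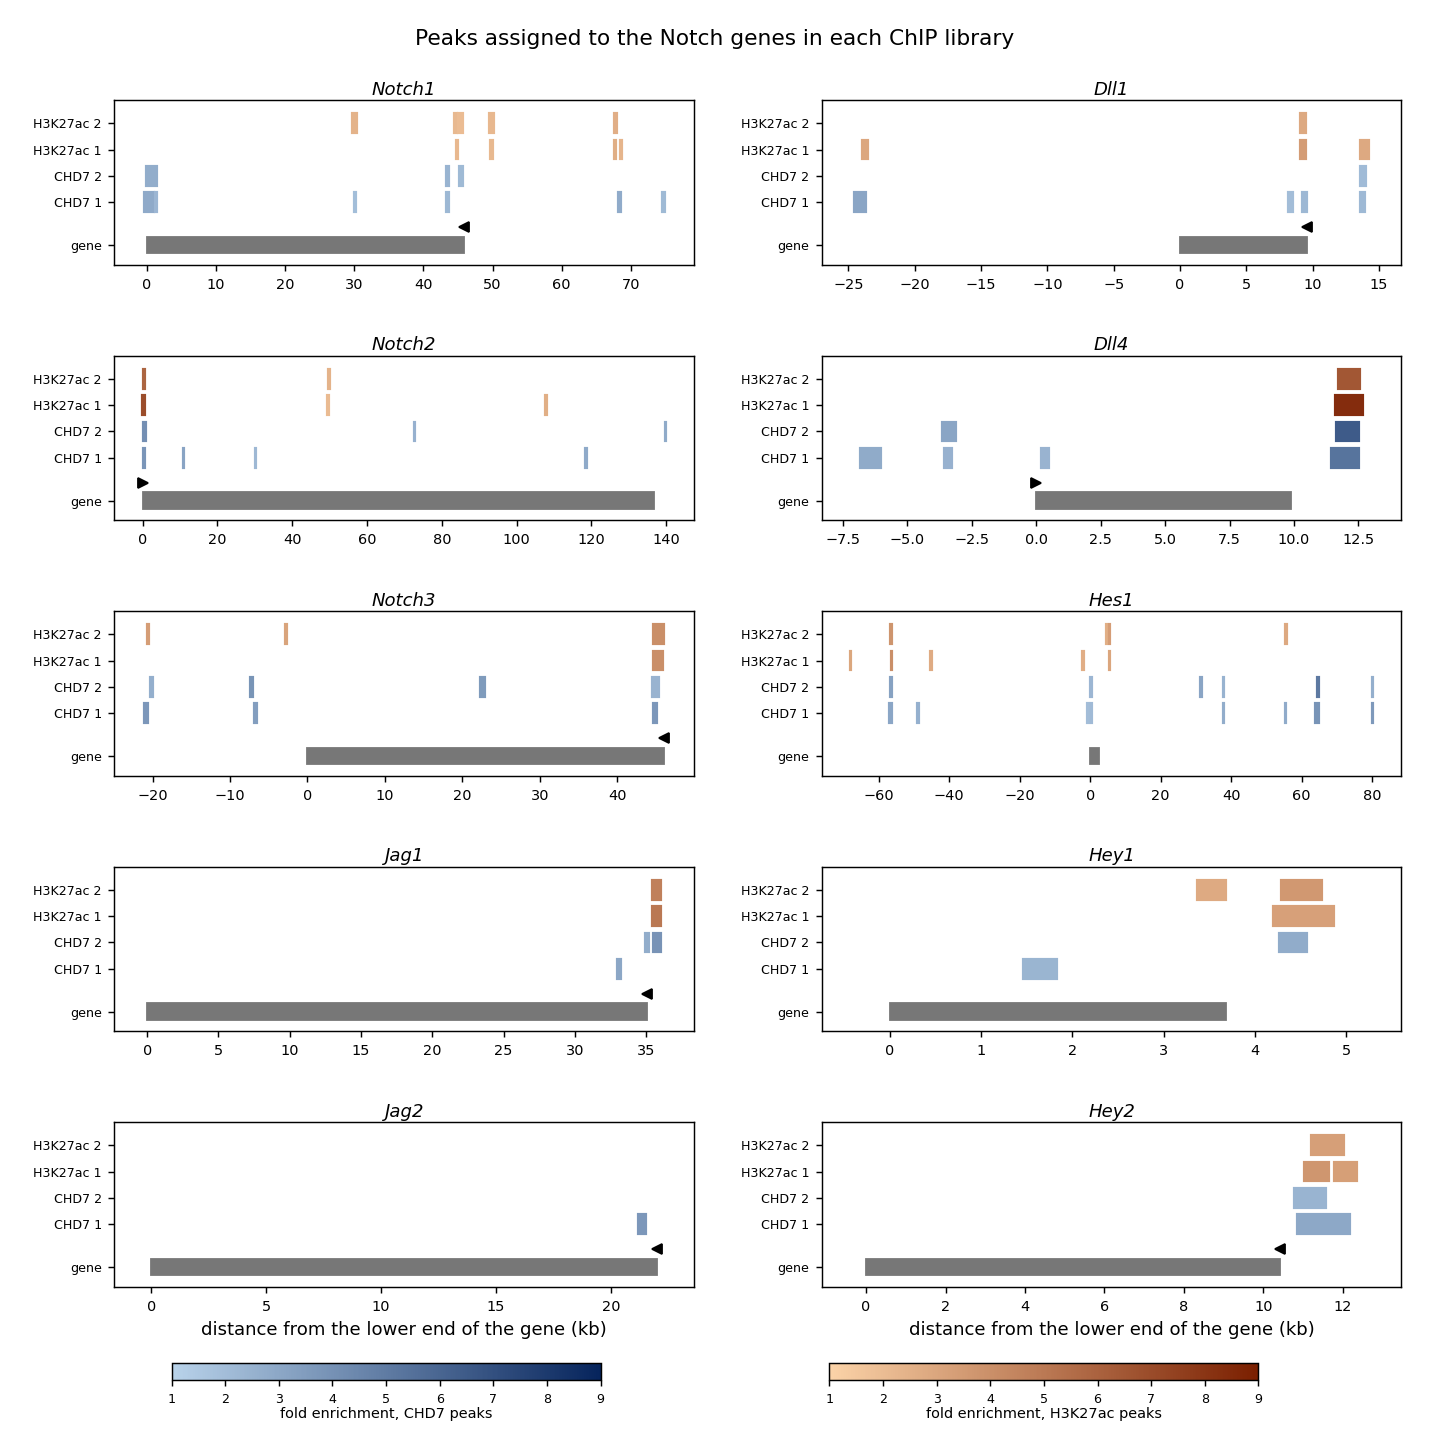
Maps of the peaks assigned to each of the 10 genes, with distance from the lower end of the gene in kb on the x axis and a row for each ChIP library. Grey bars are genes, arrowheads point along the gene from the end that holds the start site where the promoter table gives its strand, and darker boxes have higher fold. The boxes beyond Dll4, each the darkest of its library, and those at the start of Notch2 line up in all 4 libraries, whereas around Hes1 most CHD7 boxes have no H3K27ac box above them.

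Hey1 and Hey2 encode repressors of the same family that act in heart and vessel development. Hey2 (chromosome 10, 30832359 to 30842783) had both marks upstream of its start site. CHD7 (30843134 to 30844538) had folds of 2.99 and 2.42 and H3K27ac (30843392 to 30844714) folds of 3.73 and 3.28, and all 4 summits lay between 888 and 1533 bp before the start site. Hey1 (chromosome 3, 8663359 to 8667038) had H3K27ac in both libraries 520 bp beyond its upper end (8667558 to 8668219, folds 3.26 and 3.59). A CHD7 peak of library 2 alone lay within it (8667620 to 8667928, fold 2.81), and the single CHD7 peak of library 1 lay in the gene body (8664817 to 8665194, fold 2.39). This region is also at an end of the predicted gene LOC115489673.

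The 250 bases before the Hey2 start site (chr10:30842784-30843033, minus strand, same source) are shown because, of the 8 members with a promoter in the table, Hey2 is the one that holds the motif of RBPJ. Capitals here mark a match to GTGGGAA on the opposite strand, 201 to 207 bases before the start site.
Hey2: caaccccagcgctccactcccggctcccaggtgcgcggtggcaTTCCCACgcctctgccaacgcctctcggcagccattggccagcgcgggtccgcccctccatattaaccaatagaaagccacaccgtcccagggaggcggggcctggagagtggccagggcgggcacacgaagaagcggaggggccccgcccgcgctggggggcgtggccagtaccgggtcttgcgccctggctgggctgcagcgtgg
A second match, in the forward direction, begins 4 bases before the start site and runs past it. Of all 32851 promoters of 300 bases, 6.38% held GTGGGAA on either strand and 0.256% held it at least 2 times. The motif is bound by RBPJ, and a match is a description of the letters and not a site. Of the 9 promoter windows of 8 members, 1 held GTGGGAA, 5 held CACNAG (42.5% of all promoters), 5 held CACGCG (9.27%), and 0 held CACGTG (7.15%) or TATAAA (13.6%). The match of Jag2 to CACGCG and that of Dll1 to CACNAG lay past the start site. The first 250 bases of the member windows held 56.0% to 87.2% G and C and 13 to 54 CpG, against medians of 52.4% and 6. All promoters were not matched to them in this, and its part in the motif counts was not tested. The Hey2 window did not reach the CHD7 region of that gene, which began 101 bp further upstream.

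The overlap of CHD7 and H3K27ac was counted over all 10 genes, with no test of the difference from the lists as a whole. H3K27ac overlapped 5 of 13 CHD7 regions (60.4% of all CHD7 regions), and CHD7 overlapped 5 of 13 H3K27ac regions (66.8% of all H3K27ac regions). At ends, 3 of 5 CHD7 regions overlapped H3K27ac, against 80.4% of all end regions, and between genes 2 of 7 did, against 34.9%. Of the 7 H3K27ac regions at ends, 3 met CHD7 peaks of both libraries, 4 met a peak of 1 library and 0 met none. Over all H3K27ac end regions these shares were 72.0%, 17.2% and 10.9%. The 4 met by a single CHD7 library were those of Notch1, Jag1, Dll1 and Hey1. With a single CHD7 library, the share of H3K27ac regions that met CHD7 was 46.2% for library 1 (77.1% of all H3K27ac regions) and 61.5% for library 2 (74.3%), against 38.5% with both. Of the 21 peaks of H3K27ac library 1 alone, 33.3% met CHD7 regions (55.6% of all its peaks), and of the 20 of library 2 alone 25% did (58% of all its peaks). H3K27ac regions overlapped 18.2% of the 33 CHD7 peaks of library 1 (46.7% of all its peaks) and 34.8% of the 23 of library 2 (52.6%).

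How often peaks recurred between libraries was also counted, with no test. Of the CHD7 peaks of library 1, 42.4% overlapped library 2, against 65.1% of all its peaks, and of those of library 2, 56.5% against 76.6%. For H3K27ac these shares were 66.7% against 75.8%, and 70.0% against 81.3%. All 4 shares at the genes were lower than those of the whole lists. Most folds at the genes lay below the medians given above, and their part in these shares was not tested. CHD7 regions that met H3K27ac had the higher median folds, 3.72 and 3.22 in the 5 with H3K27ac and 2.64 and 2.57 in the 8 without. Over all CHD7 regions the same medians were 3.62 and 3.59 with and 3.25 and 3.20 without H3K27ac. The ranges at the members overlapped, with mean folds of 2.71 to 5.91 with H3K27ac and 2.16 to 4.50 without.

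The pathway has many further genes, of which 49 were listed by role. Of these 49 genes, 32 had CHD7 at an end and 37 had H3K27ac, against the 44.2% and 47.6% of all protein-coding genes. Both marks lay at an end of 28 and neither at 8, against 39.3% and 47.5% of all protein-coding genes. The counts by role below stand beside these shares, and differences between roles were not tested. The median mean fold of CHD7 at ends was 3.73 over those with it, 2.83 over the members and 3.73 over all genes. For H3K27ac these medians were 4.21, 3.51 and 4.80. Corepressor genes had both marks at 6 of 6, and genes of turnover and inhibition at 7 of 8. By the mean of both libraries, as for the roles that follow, their highest CHD7 folds were at Ncor1 (4.51 and 4.0), a corepressor scaffold, and Dtx4 (3.92 and 4.92), a Deltex ubiquitin ligase. Among receptor cleavage genes 6 of 9 had both, led by Psenen (4.71 and 4.10), a subunit of gamma-secretase. In the nuclear complex 4 of 7 had both, led by Snw1 (5.22 and 6.33), a splicing factor and cofactor of RBPJ. Poglut1 (4.54 and 4.84), an O-glucosyltransferase of Notch, led the 3 of 8 glycosylation and ubiquitylation genes with both.

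Further receptor, ligand and target genes were fewer. Of Notch4, Dll3, Dlk1 and Dlk2, 2 had CHD7 alone, with Dlk2 at folds of 4.0 and 3.78, 2 had H3K27ac alone and 0 had both. Of 7 further genes listed as targets, 2 had both, Hes7 had CHD7 alone with folds of 4.63 and 4.71, and 4 had neither. Whether Notch regulates each of these 7 genes was not examined. Over all protein-coding genes, 39.3% had both marks at an end, 4.83% CHD7 alone, 8.29% H3K27ac alone and 47.5% neither. The 4 of this list with neither mark at an end were Hes2, Hes3, Hes5 and Heyl. In other roles the genes with neither were Aph1b of gamma-secretase, the Fringe genes Lfng and Mfng, and Rbpj itself. Rbpj nevertheless had 3 CHD7 and 3 H3K27ac regions in its body.

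**Figure D4:**
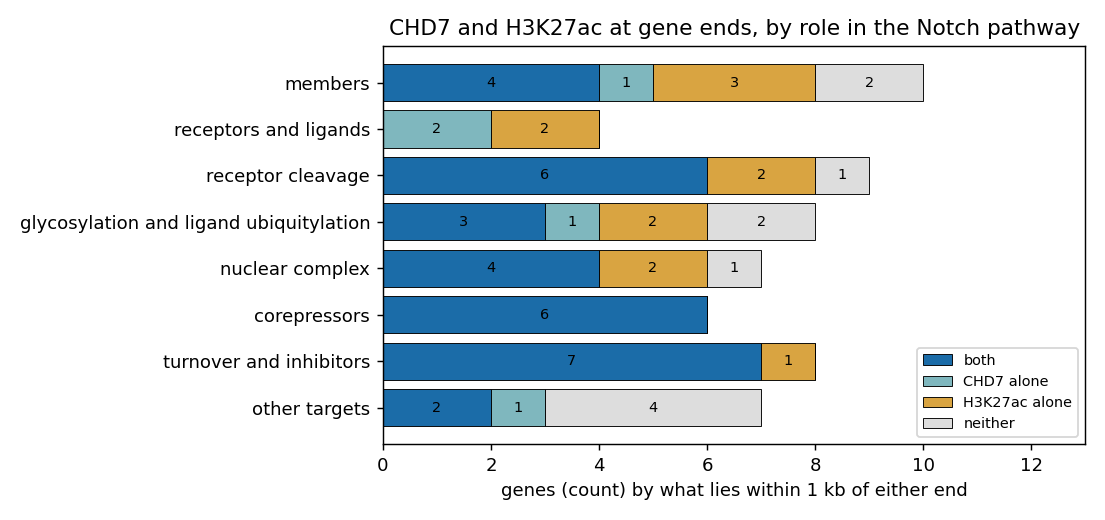
Number of genes (x axis) with CHD7 and H3K27ac, CHD7 alone, H3K27ac alone or neither within 1 kb of an end, for the 10 members and for 49 further Notch pathway genes by role (y axis). Corepressors carry both marks at 6 of 6 genes (39.3% of all protein-coding genes), whereas 4 of 7 genes listed as other targets carry neither (47.5% of all).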

How the data were processed

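ChIP-seq peak lists of 6 mouse libraries were analysed, 2 each of CHD7, H3K27ac and input. Per the submitters' processing notes, the tools were bcl2fastq 2.18.0.12, Bowtie2 2.3.3.1, Picard and MACS2 2.1.2, with build mm10. The deposited lists give for each peak, called per library, a fold enrichment ratio, the p-value and q-value as −log10, and an integer score, 10 times the −log10 q. No source used here says whether input served as control.

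Rows for several summits of 1 interval were joined with the highest fold and q, and only peaks on the autosomes, X and Y were used. Regions are merged overlapping peaks (at least 1 bp) found in both libraries. Genes came from a RefSeq table (GRCm38.p6): of 21896 protein-coding genes 21772 were used, leaving out those off these chromosomes or starting below 3000000 (500000 on Y). Nearest meant the smallest gap to the gene interval. Start sites and strands came from the promoter table, which matched 8 of 10 members. Hes1 and Hey1 were described by lower and upper end. Promoters were the 300 bases from 250 before the start site, and the first 250 are printed.

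All members, every end region and the strongest other region of each were named, and of further pathway genes the highest CHD7 fold per role and those with neither mark. The members and lists were chosen with earlier results of these data known. Assignment was tested on simulated data. Python 3.11.15, numpy 2.4.6, pandas 2.3.3 and matplotlib 3.10.9 were used. Alternatives covered the q limit, end distance, nearest-gene rule, overlap, either library and leaving out libraries.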

Additional observations from a re-analysis of the deposited data

How the results depend on the processing

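The input libraries held 0 member peaks under every alternative run, as their short lists make likely for 10 genes, so the direction of that comparison says nothing about stability, and no p could pass a threshold of 0.05. Equal library numbers allow pairing by number only, and with the replicate block the exact permutation p was 0.50 for the differences of 28 CHD7 and 20.5 H3K27ac peaks, the smallest that 2 pairs allow. With a −log10 q of at least 10, 0 members had CHD7 at an end and 3 had H3K27ac. Of the 49 other pathway genes 8 and 20 did, against 10.6% and 28.3% of all protein-coding genes. At this limit 1 of 4 member H3K27ac regions met CHD7 (25%), and 1 of 2 member CHD7 regions met H3K27ac (50%). With regions of either library, 10 members had CHD7 at an end (55.1% of all protein-coding genes). By that rule 15 of 26 member H3K27ac regions met CHD7 (57.7%), and 15 of 42 member CHD7 regions met H3K27ac (35.7%). With all RefSeq genes competing for nearest, these shares were 4 of 9 (44.4%) and 4 of 8 (50%). The matching overlap shares of all regions were not counted at the q limit or for regions of either library. Leaving out 1 library gave 7 to 8 members with CHD7 at an end, 18.2% to 46.2% of CHD7 regions with H3K27ac (the lowest without CHD7 library 2) and 25% (without H3K27ac library 1) to 61.5% (without CHD7 library 1) of H3K27ac regions with CHD7. The counts of Hes1 and Notch1 regions under other rules were added after seeing the data. Beyond the changes of rule themselves, the cause of these shifts was not tested. The depth of the libraries is unknown, so a missing peak does not show a missing mark.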

Other observations

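Around the 10 genes, 29 CHD7 peaks were found in a single library. Of these CHD7 peaks, 9 overlapped an H3K27ac peak of at least 1 library (31.0%), and of all 17403 CHD7 peaks found in a single library 34.9% did. In the other direction 6 of 13 single-library H3K27ac peaks overlapped CHD7 (46.2%), against 42.4% of all 10115. Examples lay in the Notch1 body, with CHD7 library 1 (26487808 to 26488108, fold 2.00) inside a peak of H3K27ac library 2 (26487538 to 26488354, fold 2.43), and 23668 bp below Dll1, with CHD7 library 1 (15342783 to 15343686, fold 3.11) and H3K27ac library 1 (15343412 to 15343809, fold 2.95). Another lay 52717 bp above Hes1, with CHD7 library 1 (30120513 to 30120861, fold 2.82) and H3K27ac library 2 (30120524 to 30121085, fold 2.87). These shares are near those of the whole lists.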
